A study of Mus musculus with 2 samples.

Results

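Mir221 and Mir222 are a pair of neighbouring X-linked microRNA genes whose main mature products share a seed, the stretch of bases 2 to 8 that selects target messages. Both were found by symbol in the annotation, and they are 2 of the 2202 microRNA genes in the count tables. The tables come from small-RNA sequencing of the adrenal gland of female B6CASTF1/J mice aged 10 days, an F1 hybrid strain of C57BL/6J and CAST/EiJ mice from The Jackson Laboratory. There is 1 group of 2 libraries, labelled biological replicates 1 and 2 and tied by the labels to animals numbered 3 and 4. No treatment or engineered allele is given. The samples carry a single donor entry in the labels, so the spread between them is that between these libraries and may be partly technical. With no second condition, the data give the level of each gene, the ratio of the pair and how far both vary between the libraries.

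A microRNA is cut from a hairpin in a longer primary transcript, and its mature strand guides an Argonaute protein to messages that pair with the seed. The miR-221/222 family is known for acting on the messages of Kit, the receptor for stem cell factor, and Cdkn1b, the cell cycle inhibitor p27. The family has been linked to the control of proliferation, in no single direction, in cell types that include endothelium, vascular smooth muscle and blood precursors. The adrenal gland joins a steroid-producing cortex to a medulla of chromaffin cells, which make catecholamines and still divide after birth.

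The 3p products of the pair are shown because their shared seed defines the family, with the seed in capitals. Sequences are from RefSeq, build GRCm38.p6, written 5′ to 3′. The 5p product of Mir221 comes from the other arm of its hairpin and has another seed. Mir1928, on chromosome 1, is the only other gene in the RefSeq table with a mature product of this seed (3 of 1738 mature products).
mmu-miR-221-3p: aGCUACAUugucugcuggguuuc
mmu-miR-222-3p: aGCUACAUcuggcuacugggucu
mmu-miR-1928: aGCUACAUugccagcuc
mmu-miR-221-5p: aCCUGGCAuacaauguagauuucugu

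The 3p products of Mir221 and Mir222 are each 23 bases long. They are identical over the first 8 bases, and 11 of the 23 positions hold the same base. The hairpins are printed next, with the mature products listed in RefSeq in capitals, because the counts are per hairpin and sum all reads from both arms.
Mir221 hairpin: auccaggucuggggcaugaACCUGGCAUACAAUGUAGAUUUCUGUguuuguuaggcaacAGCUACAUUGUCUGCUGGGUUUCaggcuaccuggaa
Mir222 hairpin: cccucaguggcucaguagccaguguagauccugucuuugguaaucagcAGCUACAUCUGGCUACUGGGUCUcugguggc

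The longest run of bases that the hairpins share is 9. No stretch of 16 bases from either 3p product occurs in any other of the 2202 hairpins, so a 3p read of that length or more matches no other annotated microRNA hairpin without mismatch. Reads from the other arms were not compared. Other places in the genome were not searched. Mir221 (ENSMUSG00000065422.1) lies at chrX:19146294-19146388 and Mir222 (ENSMUSG00000065471.1) at chrX:19146893-19146971 of mm10, both on the minus strand. Mir222 is therefore first in the direction of transcription, and 504 bases separate the hairpins. In the annotation neither gene lies in an exon, intron or UTR of another gene. The nearest annotated gene is Gm14636, a noncoding gene on the same strand that ends 10009 bases upstream of the pair, and the nearest protein-coding gene is Tex13c3, 332448 bases away.

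**Figure D1:**
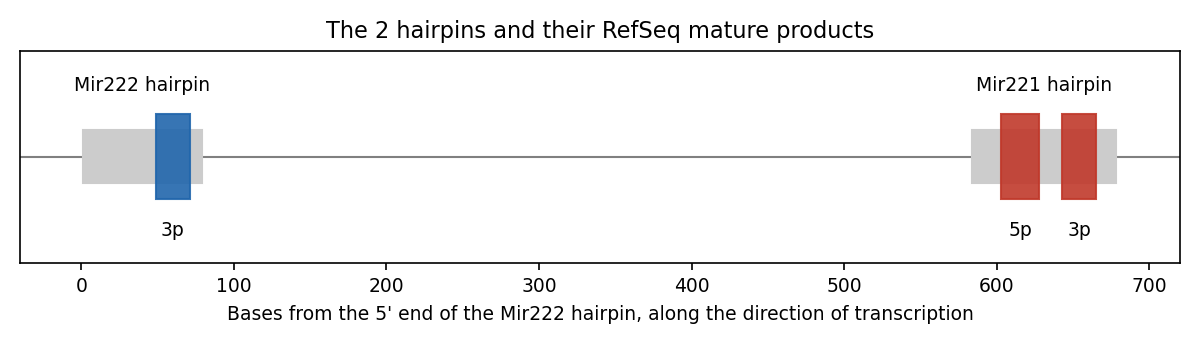
Map of the pair, with bases from the 5′ end of the Mir222 hairpin along the direction of transcription on the horizontal axis. Grey boxes are the annotated hairpins and coloured boxes the mature products in RefSeq, which lists none from the first arm of the Mir222 hairpin. Mir222 spans bases 1 to 79 and Mir221 bases 584 to 678.

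Target sites of the family are shown for 3 messages, Kit and Cdkn1b as the best known targets and Cdkn1c, the inhibitor p57, as a close relative of Cdkn1b. The motif searched was ATGTAGCA, the complement of the seed followed by A, on the strand of the message, in the longest annotated 3′ UTR of each gene. Capitals mark the motif. Coordinates are of mm10.
Kit, chr5:75654978-75654999, plus strand: atgatgggagatatATGTAGCA
Kit, chr5:75656509-75656530, plus strand: ttgtaaatattgaaATGTAGCA
Cdkn1b, chr6:134924417-134924438, plus strand: tctaaaagcattggATGTAGCA
Cdkn1c, chr7:143458925-143458946, minus strand: gggacctttcgttcATGTAGCA

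Of 21015 genes with a 3′ UTR, 737 (3.51%) held this motif. The share grew with length, and among UTRs of 80 to 125% of the length it was 5.41% for Kit (UTR of 2177 bases), 9.08% for Cdkn1b (3439 bases) and 1.60% for Cdkn1c (688 bases). Of 9 genes that earlier work has named as targets, 6 held it at least once. This search was added after the data were seen, and the list of genes was settled after all but Timp3 had been searched, so the count describes these genes and supports nothing further. Bbc3, which encodes the cell death protein Puma, Ddit4, an inhibitor of mTOR signalling, and Esr1, the estrogen receptor, were the other 3 of these. Foxo3, Timp3 and Icam1 did not hold all 8 letters in the window searched, though Timp3 held them without the final A. A match describes the sequence only, and no messenger RNA was measured in these libraries.

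Mir221 was among the upper ranks of the microRNA genes in the gland. Levels are in CPM, the count on the strand of the gene scaled to a total of 1000000 reads assigned to microRNA genes. Mir221 stood at 454 CPM in replicate 1 (919 reads, exact 95% Clopper-Pearson interval 425 to 485) and at 849 CPM in replicate 2 (2724 reads, 817 to 881). The intervals do not overlap, and replicate 2 was 1.87-fold higher on this scale. The mean was 652 CPM ± 279 (SD, n = 2), or 0.0652% of assigned reads. Mir221 held rank 134 of 2202 genes in replicate 1 and rank 96 in replicate 2. By mean level it held rank 115, also among the 302 genes at 10 CPM or more in both libraries.

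Mir222 was far less abundant. It stood at 66.7 CPM in replicate 1 (135 reads, exact interval 55.9 to 79.0) and at 99.4 CPM in replicate 2 (319 reads, 88.8 to 111). Again the intervals do not overlap and replicate 2 was the higher, by 1.49-fold. The mean was 83.1 CPM ± 23.1 (SD, n = 2), with rank 232 in replicate 1 and 204 in replicate 2. Together the pair took 521 CPM (0.0521% of assigned reads) and 948 CPM (0.0948%). These intervals cover counting error only, because reads copied by PCR are not independent molecules.

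Both genes were read from their own strand alone. Neither had a read on the opposite strand in either library, and their counts irrespective of strand were identical to the sense counts. Mir1928, which shares the seed, had 0 reads in both libraries. An approximate upper 95% limit for counting error is 3 reads, or 1.48 CPM in replicate 1 and 0.935 CPM in replicate 2. This limit does not cover reads that were left uncounted. Of the genes listed with this seed, Mir221 and Mir222 had reads and Mir1928 had none; the counts do not separate the arms of a hairpin.

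The libraries behind these values held 2023410 and 3208821 assigned reads, which were 38.3% and 37.5% of all reads. Single reads were worth 0.494 and 0.312 CPM. Reads with several alignments, 25.0% and 27.2% of all reads, were left uncounted by the authors. The libraries were not copies of each other (chi-square 510403 on 437 degrees of freedom over 438 genes). Mir375, a microRNA typical of neuroendocrine cells such as those of the medulla, stood at 24805 and 31924 CPM. Mir122 of hepatocytes (26733 and 9284 CPM) and Mir206 of skeletal muscle (11177 and 4480.2 CPM) were also present, both lower in replicate 2, in which the pair was higher; their part in the results below was not tested. Of the other 3 striated muscle markers, Mir133b stood at 17.8 and 5.92 CPM and Mir1a-2 at 2.97 and 1.56 CPM. Mir1a-1 had no read in either library. Mir1a-1 and Mir1a-2 are numbered copies that lose reads fitting both, so their values are lower limits.

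The pair was uneven in both libraries, always with Mir221 in excess. In replicate 1 there were 6.81 reads of Mir221 for each read of Mir222 (exact 95% interval 5.68 to 8.22), and in replicate 2 there were 8.54 (7.60 to 9.62). The mean was 7.67 ± 1.22 (SD, n = 2). Mir222 made up 12.8% of the pair's reads in replicate 1 (10.8 to 15.0%) and 10.5% in replicate 2 (9.42 to 11.6%). Scaled to the length of the annotated hairpins, 95 and 79 bases, the excess of Mir221 was 5.66-fold and 7.10-fold. Each gene yields mature products of similar length, so the ratio of reads is given first.

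**Figure D2:**
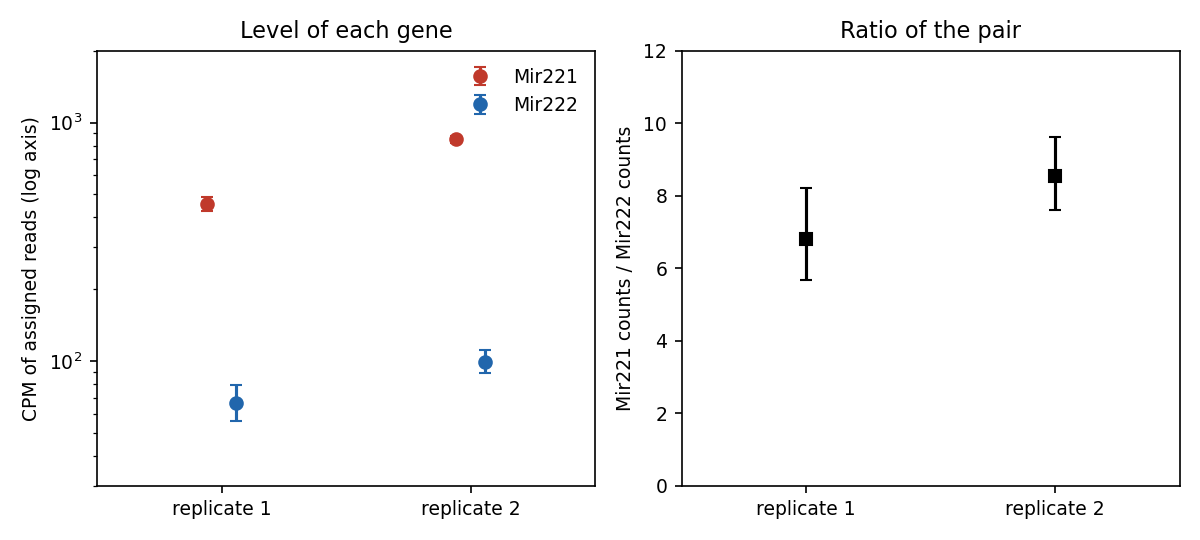
Left, CPM of Mir221 and Mir222 in each library on a log axis; right, the ratio of Mir221 to Mir222 counts in each library. Points are single libraries and bars their exact 95% intervals for counting error. Both genes are higher in replicate 2, at 849 against 454 CPM and 99.4 against 66.7 CPM, and the intervals of the ratio overlap.

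With reads taken as independent, the ratio of the pair differed between the libraries by narrowly more than counting error. The odds of a pair read being from Mir222 rather than Mir221 were 0.797 times as high in replicate 2 as in replicate 1 (exact 95% interval 0.641 to 0.996, two-sided Fisher's exact test, p = 0.0404). This is a change of 0.33 on the log2 scale, and the upper bound of the interval lies close to 1. The test sets these libraries against counting error and does not compare conditions. Reads copied by PCR are not independent molecules, so a p-value this close to the threshold leaves the difference uncertain.

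Neighbouring microRNA genes in general gave a scale for this change. Of the 84 pairs of neighbours on 1 strand less than 10 kb apart, with both genes at 10 CPM or more in both libraries, 22 moved less in ratio than Mir221 and Mir222 and 61 moved more. The median absolute log2 change was 0.66, with quartiles of 0.29 and 1.17. The most stable pairs were Mir382/Mir134, Mir30b/Mir30d and Mir409/Mir412, each with a change of 0.01. Those that moved most were Mir381/Mir487b (4.73), Mir487b/Mir539 (3.42) and Mir299a/Mir380 (2.58), all of the Dlk1-Dio3 region. Next to the miR-221/222 pair in this order were Mirlet7c-2/Mirlet7b (0.30) and Mir154/Mir496a (0.34). Some genes are in more than 1 pair, so the pairs are not independent.

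Like the miR-221/222 pair, 18 of the other neighbouring pairs share a seed in at least 1 product. Within these 19 pairs the median change was 0.52, and 5 moved less than Mir221/Mir222. Their unevenness ranged from 1.21-fold to 118-fold with a median of 6.91-fold, and 11 pairs were less uneven and 7 more uneven than Mir221/Mir222. Several of these pairs hold numbered copies, such as Mirlet7d/Mirlet7f-1 (117-fold and 119-fold) and Mirlet7c-2/Mirlet7b (77.7-fold and 95.5-fold). Such copies lose reads that fit another copy, so the range and median also depend on reads left uncounted. How much they do was not tested. Mir132 exceeded its neighbour Mir212, a pair known from neurons, by 18.2-fold and 19.0-fold. Mir93 exceeded Mir106b of the proliferation-linked miR-106b/25 cluster by 7.06-fold and 13.0-fold. Mir379 and Mir411 were nearly even, with Mir411 1.28-fold and 1.15-fold higher. The comparison among pairs that share a seed was added after the data were seen. It counts only pairs with sequences, since 3 of the 84 pairs had a gene with no mature sequence in the table, Mir30b/Mir30d among them.

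**Figure D3:**
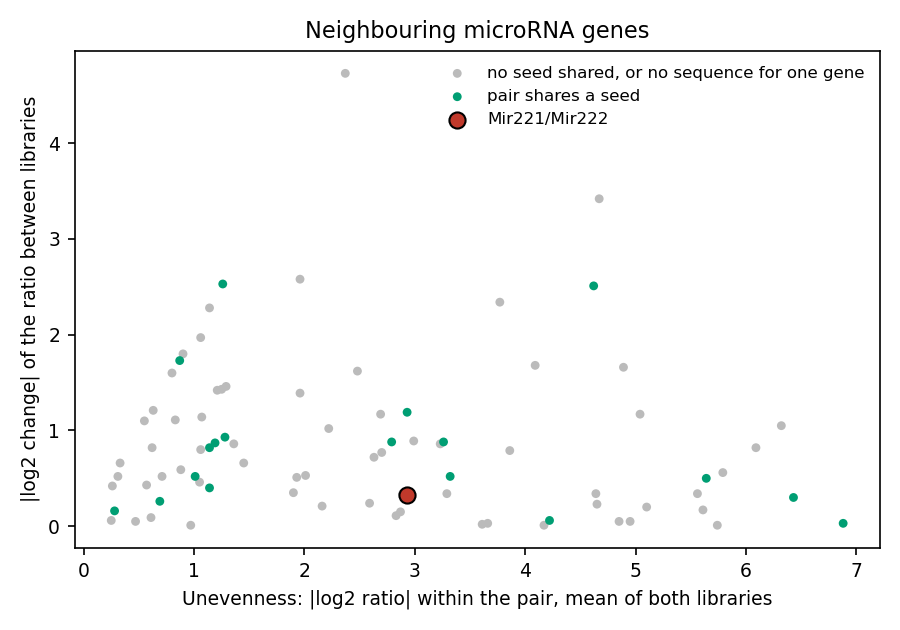
Each point is 1 of 84 pairs of neighbouring microRNA genes, with the mean absolute log2 ratio within the pair on the horizontal axis and the absolute log2 change of that ratio between libraries on the vertical axis. Green points share a seed. The Mir221/Mir222 point lies at a change of 0.33, below the median of 0.66.

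Both members were higher in replicate 2 after scaling by TMM, which evens out differences in composition between libraries. The log2 ratio of replicate 2 over replicate 1, with 1 CPM added, was 0.95 for Mir221 (exact 95% interval 0.84 to 1.06; exact conditional binomial test, Benjamini-Hochberg adjusted p = 1.39e-72). For Mir222 it was 0.62 (0.33 to 0.92; adjusted p = 3.24e-05 by the same exact test). Such calls were frequent: of 329 genes with at least 10 CPM in either library, 244 (74.2%) differed between the libraries, and 124 (37.7%) were higher in replicate 2. The test measures these libraries against counting error only, and the calls of both members are to be read beside that background.

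Against the spread of all genes the members' differences were moderate. The log2 ratios of the 329 genes had a median of -0.01, quartiles of -0.50 and 0.47, and an SD of 1.01. A larger absolute log2 ratio than that of Mir221 was found for 84 genes (25.5%), and than that of Mir222 for 134 (40.7%). Mir126a of endothelium, the gene of the highest mean level (rank 1 in replicate 1 and 4 in replicate 2), held 177728 and 47927 CPM in the libraries of replicates 1 and 2. With CPM computed without it, the median of all genes shifted to -0.26, the log2 ratios were 0.69 for Mir221 and 0.36 for Mir222, and the share of calls that were higher in replicate 2 was 35.5% in place of 50.8%.

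**Figure D4:**
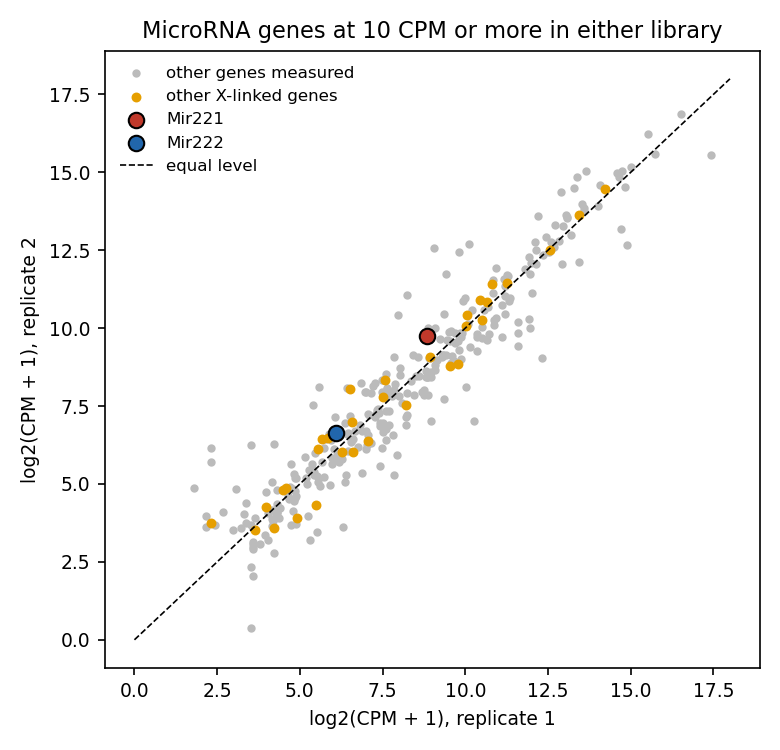
Level of 329 microRNA genes as log2(CPM + 1) in replicate 1 (horizontal) and replicate 2 (vertical), with the dashed line at equal levels. Mir221 and Mir222 both lie above the line, within the cloud of other genes, and orange points are the other X-linked genes.

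The genes next to the members were taken by rank of mean level, so their means are close to those of the members by selection. Mir503 (666 CPM ± 288), Mir18 (662 ± 167), Mir665 (651 ± 534) and Mir369 (645 ± 217; all SD, n = 2) surrounded Mir221, and all were lower in replicate 2 rather than higher. Around Mir222 stood Mirlet7f-1 (88.1 CPM ± 21.2), Mir877 (87.0 ± 8.40), Mir362 (80.5 ± 23.9) and Mir129-2 (77.8 ± 53.6; all SD, n = 2). These SDs are larger than the gaps between neighbouring means, so the order at these levels is not fixed by these libraries. Mirlet7f-1 is also a numbered copy that loses reads fitting another copy, so its value is a lower limit.

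The genes most like each member over both libraries were named by distance in log2(CPM + 1), with only 2 libraries to compare. For Mir221 they were Mir142, a microRNA of leukocytes (471 and 1023 CPM, distance 0.27), Mir770 of the Dlk1-Dio3 region (542 and 1028 CPM, 0.37), Mirlet7c-2 (0.42), Mir485 (0.62) and Mir501 (0.67). For Mir222 they were Mirlet7f-1 (73.1 and 103 CPM, 0.14), Mir204 (57.8 and 96.3 CPM, 0.21), Mir32 (0.26), Mir106a (0.29) and Mir101a (0.35). Mirlet7c-2 and Mirlet7f-1 are numbered copies that lose reads fitting another copy. Their values are lower limits, and their nearness to the members depends on reads left uncounted. Mir501 and Mir106a are X-linked, as the pair is. Neither member was among the 5 genes nearest to the other.

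On the X chromosome, 31 other genes reached 10 CPM in both libraries. Mir221 ranked 14 and 11 among all X-linked microRNA genes in replicates 1 and 2, and Mir222 ranked 23 and 20. The chromosome was led by Mir322, a growth-linked gene (19026 and 22827 CPM), Mir652 (11085 and 12592 CPM), Mir351 (6059.6 and 5864 CPM) and Mir98 of the let-7 family (2468 and 2789 CPM). Of the 31, 16 were higher and 8 lower in replicate 2 and 7 did not pass the test. Over all 329 genes measured, 244 (74.2%) were called and 124 (37.7%) were higher in replicate 2. These shares are also the background for the counts of called genes in the lists below. The median log2 ratio of the 31 was 0.23, beside -0.01 over all genes measured. The log2 ratios of the 31 ran from -1.12 to 1.57, a range that holds both members.

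Other microRNAs reported to act on Kit were at levels of the same order as Mir221. Mir193b stood at 925 and 918 CPM, Mir34a of the p53 pathway at 888 and 625 CPM, Mir193a at 476 and 526 CPM, and Mir494 at 177 and 323 CPM. Of these 4 genes, 2 were higher in replicate 2 (Mir193a, log2 ratio 0.19, and Mir494, 0.91), Mir34a was lower (-0.46) and Mir193b did not pass (0.04, adjusted p = 0.436 by the exact test). The median was 0.11. Summed, the 4 genes held 2466 and 2392 CPM, beside the 521 and 948 CPM of the pair.

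Those reported to act on Cdkn1b were spread more widely. Mir148a stood at 641 and 568 CPM, Mir152 of the same seed family at 255 and 227 CPM, Mir196a-2 of a Hox cluster at 85.5 and 269.9 CPM, and Mir181a-1 at 193 and 162 CPM. Of 6 genes 5 were measured, of which Mir196a-2 was higher in replicate 2 (log2 ratio 1.69), 3 were lower and Mir152 did not pass (-0.12). The median was -0.13, and the sums were 1228 and 1246 CPM. The numbered copies of Mir181a and Mir196a lose reads that fit both copies, so their values are lower limits.

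The miR-17/92 and miR-106b/25 clusters, a standard sign of proliferation, did not move as 1 block. Their 9 genes summed to 15184 and 18307 CPM, led by Mir93 (4399 and 7008 CPM), Mir17 (4533 and 5876 CPM), Mir92-1 (2555 and 1875 CPM) and Mir20a (1821 and 2224 CPM). Of the 8 measured genes, 3 were higher and 4 lower in replicate 2 and 1 did not pass, with a median log2 ratio of -0.28. Mir92-1, called lower, and Mir19b-1, which did not pass, are numbered copies. Such copies lose reads that fit another copy, so their values are lower limits. Both members of the miR-221/222 pair, at 0.95 and 0.62, lay on the higher side.

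Markers of cell types that can hold the pair differed between the libraries as well. In a whole gland, fewer cells of a type and less RNA per cell cannot be told apart. Of 5 leukocyte genes, 4 were higher in replicate 2 and 1 was lower, with sums of 2928 and 3511 CPM, and Mir223 of myeloid cells (log2 ratio 1.57) and Mir142 (1.16) moved more than either member. Both smooth muscle genes were higher (Mir143 0.34, Mir145a 2.68), with sums of 28429 and 39314 CPM. The endothelial sums were 177732 and 47928 CPM, and Mir126a had a log2 ratio of -1.84. All 3 red blood cell genes were lower (sums 653 and 319.7 CPM).

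Neuroendocrine genes split, with 1 of 5 higher (Mir375, log2 ratio 0.41), 3 of 5 lower, the fifth short of the threshold, a median of -0.12 and sums of 28211 and 34978 CPM. The copies of Mir7 in this list were first looked up under names the annotation does not use; finding them added 1 of the lower genes and the gene that did not pass. These copies, Mir7-1 and Mir7-2, lose reads that fit both, so their values are lower limits. Mir7-2, the lower of these, had 93 reads in replicate 1 and 105 in replicate 2. No gene of these 5 lists was at 0 in both libraries. Both members were higher in replicate 2, as were the leukocyte, smooth muscle and neuroendocrine sums. The endothelial, red blood cell, liver and striated muscle sums were lower. Most of the neuroendocrine sum was Mir375 (24805 and 31924 CPM), while 3 of the 5 genes of that list were lower. With 1 library each, the part of these cell types in the members' levels was not tested.

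**Figure D5:**
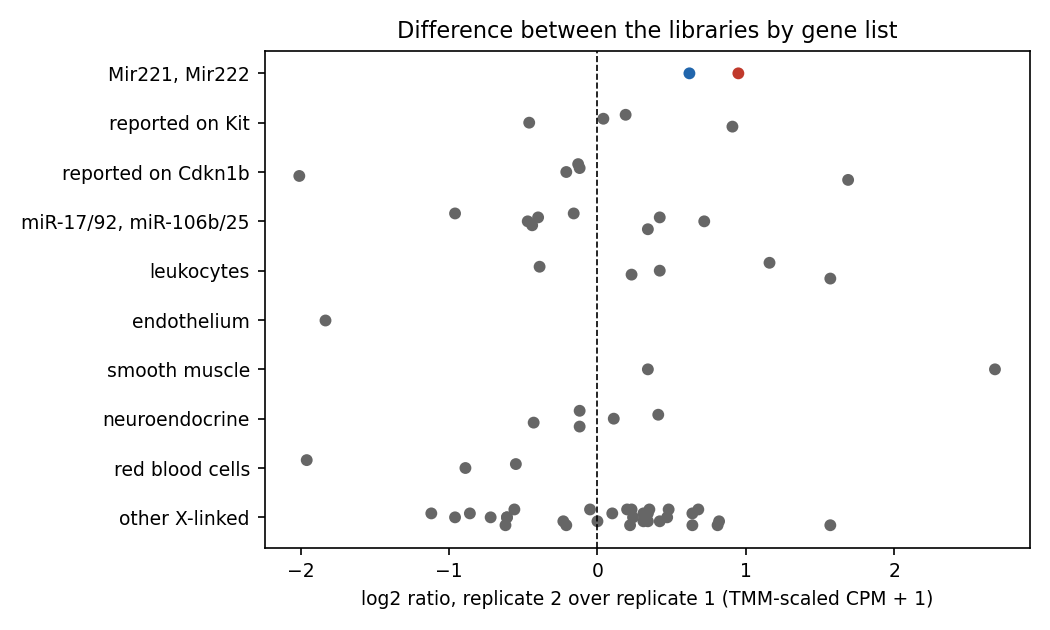
Log2 ratio of replicate 2 over replicate 1 for each measured gene, by list, with the dashed line at no difference. Mir221 (0.95) and Mir222 (0.62) are at the top; of the other lists plotted, all but endothelium, smooth muscle and red blood cells hold genes on both sides of the line.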

How the data were processed

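The authors quantified microRNAs on genome assembly mm10 with annotation M21 and deposited raw counts per gene, per the text files that accompany the libraries. The sources used here do not name the aligner or the counting program. Counts on the strand of the gene were used, and the 4 summary lines stayed out of totals. All identifiers were matched to GENCODE M21, which gave symbols and positions. CPM used all counts assigned to microRNA genes. The exact conditional binomial test used TMM library sizes (edgeR 4.0.16) over genes with at least 10 CPM in either library, with Benjamini-Hochberg adjustment at 0.05. It was tested on simulated counts with counting error only and plain library totals, so that run does not cover other variation between libraries. Ratios of the pair were compared with Fisher's exact test (SciPy 1.17.1, Python 3.11.15, R 4.3.3). Size factors of DESeq2 1.42.0 were an alternative. Genes named were the members, genes sharing their seed, the 5 nearest in level, up to 4 per list, X-linked genes, the gene of the highest mean, and the extreme neighbouring pairs. Genes next in rank, further marker genes, seed-sharing pairs and the target-site search were added after the data were seen. Members and lists were chosen with earlier results of these data known, and marker names were respelled to the annotation after a first run. Target sites were read from GENCODE M21 transcripts, and 1 further gene of the target list, outside the 9 counted, is not reported here.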

Additional observations from a re-analysis of the deposited data

How the results depend on the processing

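Both members were higher in replicate 2, past the threshold, under each alternative that gave a value. The log2 ratio was 0.90 for Mir221 and 0.57 for Mir222 with plain CPM, 0.98 and 0.65 with DESeq2 size factors, 0.69 and 0.36 without Mir126a in the total (adjusted p = 4.01e-38 and 0.0194, exact conditional binomial test), and 0.93 and 0.60 with counts irrespective of strand. At a floor of 100 CPM Mir222, at 99.4 CPM or less, was not tested. Over all reads of a library in place of assigned reads, the mean levels were 246 for Mir221 and 31.4 CPM for Mir222, and with counts irrespective of strand Mir222 was at 111 CPM, because the totals differ. Without replicate 1 or 2, mean levels ranged from 454 to 849 CPM for Mir221 and from 66.7 to 99.4 CPM for Mir222, and the ratio of Mir222 to Mir221 from 0.117 to 0.147 around a geometric mean of 0.131. Per base of the annotated gene that ratio was 0.158. For pairs under 1 kb apart, 10 of 54 (18.5%) moved less in ratio than the members, beside 22 of 84 (26.2%) under 10 kb; the cause was not tested. The floor of 100 CPM was applied to the pairs already formed, with each gene at 100 CPM or more in either library; the members' own pair then falls out, and 16 of 66 pairs moved less. With 1 library left no comparison between libraries could be made. No paired analysis was possible because there is 1 group. Depth limits Mir222 most, with 135 reads in replicate 1.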

Other observations

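Among the 19 neighbouring pairs that share a seed, 2 changed which gene was the more abundant, a change that Mir221 and Mir222 did not show. Mir195a exceeded Mir497 by 4.52-fold in replicate 1, and Mir497 exceeded Mir195a by 1.27-fold in replicate 2. Mir181c exceeded Mir181d by 1.82-fold in replicate 1, and Mir181d was ahead by 1.82-fold in replicate 2. Mir34c exceeded Mir34b, whose products belong to the p53-linked miR-34 family, in both libraries but by 10.3-fold in one and 58.9-fold in the other. These values were noticed after the data were seen, and no test was made of them.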
